A study of Mus musculus with 24 samples.

Results

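The genes described here are 35 genes of lipid synthesis and sterol export, taken by name from a list and measured in mouse CD8+ T cells. They comprise 16 genes of sterol synthesis, 6 that control this pathway or carry sterols within the cell, 10 of fatty acid synthesis, and 3 that export sterols or are other targets of the liver X receptors (LXRs). All 35 were found among the 23366 genes of the deposited tables, and all 35 passed the filter on low counts at both days. The study sequenced the RNA of 24 libraries, 3 in each of 8 groups, from C57BL/6 mice whose ages and sexes are not given in the sources used here. Naive CD8+ cells, CD62Lhi and CD44-, were sorted from spleen and lymph nodes and activated on plates coated with antibodies to CD3 and CD28 (1 µg/ml). The mice of all groups carried the gene of the glucocorticoid receptor, Nr3c1, in its loxP-flanked form (fl/fl). Cells called WT had no Cre, while cells called cKO carried E8i-Cre, a Cre driven by an enhancer of the Cd8 locus. At day 3, after 3 days of activation, there were WT and cKO cells without an addition (Ctrl) and with 10 nM dexamethasone (Dex), a synthetic ligand of that receptor. At day 9 there were 4 groups of WT cells, activated for 3 days, rested for 3 days in 5 ng/ml IL2 and activated again for 3 days. They received no addition (Ctrl), 10 nM Dex, 25 ng/ml of the cytokine IL27, or both (Dex+IL27). Cells grew in a medium with fetal calf serum, which itself carries sterols and fatty acids. Nothing states that the libraries of a group came from separate mice or cultures, so the p-values measure the spread between these libraries, which may be technical.

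Cells build cholesterol from acetyl-CoA through the mevalonate pathway, and build fatty acids from the same precursor through acetyl-CoA carboxylase and fatty acid synthase. Most genes of both pathways are targets of the SREBP transcription factors (encoded by Srebf1 and Srebf2), which the escort protein SCAP moves to the Golgi for cleavage when sterols are low and which INSIG proteins retain in the endoplasmic reticulum when sterols are high. LXRs respond to oxidised sterols and raise genes of sterol export. T cells are known to raise lipid synthesis after activation, when they grow and divide.

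Promoters of the genes were examined first, since SREBPs are known to act at such sites together with the factors NF-Y and Sp1. RefSeq windows of 300 bases (250 before to 50 after the start site, build GRCm38.p6) were at hand for 27 of the 35 genes, 36 windows in all. Both strands were searched for TCACNCCAC (an SREBP site), CCAAT (an NF-Y site) and GGGCGG (an Sp1 site). CCAAT or its reverse complement was in 61.1% of the 36 windows, compared with 37.4% of the 32851 windows of all genes. Among the sterol synthesis genes it was in 12 of 16 windows (75.0%). GGGCGG was in 75.0% of the 36 windows, against 35.7% of all windows and 61.5% of the windows of genes tested here. The SREBP letters were found for Hmgcs1, where the match TCACCCCAC began 137 bases before the start site, and in no other of the 36 windows, with a share of 1.24% over all windows. These matches are descriptions of the letters in the windows and show no binding. Among genes whose windows are not printed, Fads2, Acaca and Scap fell at day 9 and hold no CCAAT on either strand. Mvd and Elovl5 rose at day 9 and hold 2 matches each. Whether the letters go with the direction of change was not tested. The windows of 5 genes that the results turn on are printed 5′ to 3′ on the strand of the gene, with the CCAAT and SREBP letters of either strand in capitals: Hmgcs1 (chr13:119690101-119690400, plus strand), which holds the SREBP letters, Idi1 (chr13:8885356-8885655, plus strand), the sterol gene that fell most at day 9, Hsd17b7 (chr1:169969156-169969455, minus strand), a later sterol gene that fell, Fasn (chr11:120824498-120824797, minus strand), which fell among the fatty acid genes, and Elovl6 (chr3:129532136-129532435, plus strand), which rose with Dex and holds neither.
Hmgcs1: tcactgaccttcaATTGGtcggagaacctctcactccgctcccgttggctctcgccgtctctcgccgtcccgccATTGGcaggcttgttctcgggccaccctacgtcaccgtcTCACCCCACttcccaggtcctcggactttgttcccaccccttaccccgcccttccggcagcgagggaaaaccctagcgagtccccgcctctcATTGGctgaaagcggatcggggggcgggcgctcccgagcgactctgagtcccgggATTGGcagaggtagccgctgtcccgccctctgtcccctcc
Idi1: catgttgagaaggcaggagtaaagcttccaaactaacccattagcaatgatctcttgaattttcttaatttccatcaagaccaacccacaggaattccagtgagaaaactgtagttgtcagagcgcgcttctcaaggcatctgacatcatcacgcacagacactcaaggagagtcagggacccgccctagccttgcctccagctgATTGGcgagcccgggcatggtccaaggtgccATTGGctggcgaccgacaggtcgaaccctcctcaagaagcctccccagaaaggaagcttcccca
Hsd17b7: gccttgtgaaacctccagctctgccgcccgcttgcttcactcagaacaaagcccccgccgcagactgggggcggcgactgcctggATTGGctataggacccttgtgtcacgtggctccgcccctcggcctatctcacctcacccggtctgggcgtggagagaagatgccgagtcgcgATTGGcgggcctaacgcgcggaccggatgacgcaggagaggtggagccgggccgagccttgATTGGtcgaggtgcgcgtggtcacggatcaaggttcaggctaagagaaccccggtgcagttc
Fasn: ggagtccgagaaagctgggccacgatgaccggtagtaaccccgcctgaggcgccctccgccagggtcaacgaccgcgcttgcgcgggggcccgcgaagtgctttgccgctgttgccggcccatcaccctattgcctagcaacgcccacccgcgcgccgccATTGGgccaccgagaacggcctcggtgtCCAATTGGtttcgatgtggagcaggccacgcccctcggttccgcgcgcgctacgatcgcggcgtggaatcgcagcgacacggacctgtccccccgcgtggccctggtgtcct
Elovl6: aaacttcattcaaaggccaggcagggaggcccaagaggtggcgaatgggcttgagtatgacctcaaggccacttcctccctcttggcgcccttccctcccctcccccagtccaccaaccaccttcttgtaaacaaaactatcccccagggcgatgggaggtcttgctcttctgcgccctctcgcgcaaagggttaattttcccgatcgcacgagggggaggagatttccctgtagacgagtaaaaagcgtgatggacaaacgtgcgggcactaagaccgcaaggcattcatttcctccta

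Library totals ran from 14221883 to 19018440 estimated counts. Nr3c1 was at 15.2 to 22.1 CPM (counts scaled to the size of the library) in WT Ctrl libraries of day 3 and 5.49 to 8.46 in cKO Ctrl libraries. The summed level of 5 CD8 T cell markers (Cd3d, Cd3e, Cd3g, Cd8a, Cd8b1) was 777.5 to 1234 FPKM (fragments scaled to gene length and library size) over the 24 libraries. Summed B cell markers were at 5.19 to 17.6, myeloid and dendritic markers at 0.04 to 2.95, NK markers at 0.00 to 0.30, erythroid and platelet markers at 0.00 to 7.92 and fat cell markers at 0.00 to 0.25 FPKM. In bulk RNA, fewer cells of a type and less RNA per cell cannot be told apart.

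In WT Ctrl cells of day 3 the sterol synthesis genes spanned from 4.01 ± 0.206 FPKM for Hsd17b7 (mean ± SD, n = 3, here and below) to 261 ± 2.86 for Fdps, the synthase of farnesyl diphosphate. After Fdps came Idi1, the isopentenyl diphosphate isomerase, at 126 ± 3.85, Hmgcs1, the HMG-CoA synthase, at 91.9 ± 1.26, and Acat2, the cytosolic thiolase that feeds it, at 63.9 ± 2.46 FPKM. The spreads of these 4 genes did not overlap. Among the fatty acid genes the highest were Acly, which makes cytosolic acetyl-CoA from citrate, at 90.8 ± 2.93, and Scd2, a stearoyl-CoA desaturase, at 81.5 ± 4.52 FPKM. Fasn, the fatty acid synthase, was at 12.7 ± 0.495 FPKM and its partner Acaca, acetyl-CoA carboxylase, at 6.01 ± 0.420. Srebf1 (30.5 ± 1.73 FPKM) stood above Srebf2 (19.4 ± 1.27), and the retention factor Insig1 (38.0 ± 1.80) above Insig2 (19.1 ± 1.39). The exporter Abcg1 was at 8.43 ± 0.637 FPKM, whereas the exporter Abca1 was at 0.130 ± 0.02, close to the lower end of what was counted. Mylip, a ubiquitin ligase that lowers sterol uptake, lay between them at 1.19 ± 0.379 FPKM.

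Ctrl cells of day 9 had higher levels of several synthesis genes and lower levels of the export genes than Ctrl cells of day 3; day was not tested, because culture history runs with it. Fasn was at 30.3 ± 2.51 FPKM in Ctrl cells of day 9, and Fads2, a desaturase of polyunsaturated fatty acids, at 31.2 ± 2.90 against 10.2 ± 1.84 at day 3. Fdps was at 413 ± 20.2 and Acly at 142 ± 7.43 FPKM, each above its level at day 3. Abcg1 was at 2.95 ± 0.379 and Mylip at 0.323 ± 0.0666 FPKM, each below its level at day 3. The 16 sterol genes summed to 913.1 ± 15.2 FPKM in WT Ctrl cells of day 3 and 1345 ± 15.7 in Ctrl cells of day 9, and the 10 fatty acid genes to 344.7 ± 7.04 and 517.1 ± 13.4. These sums follow their most abundant genes.

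**Figure D1:**
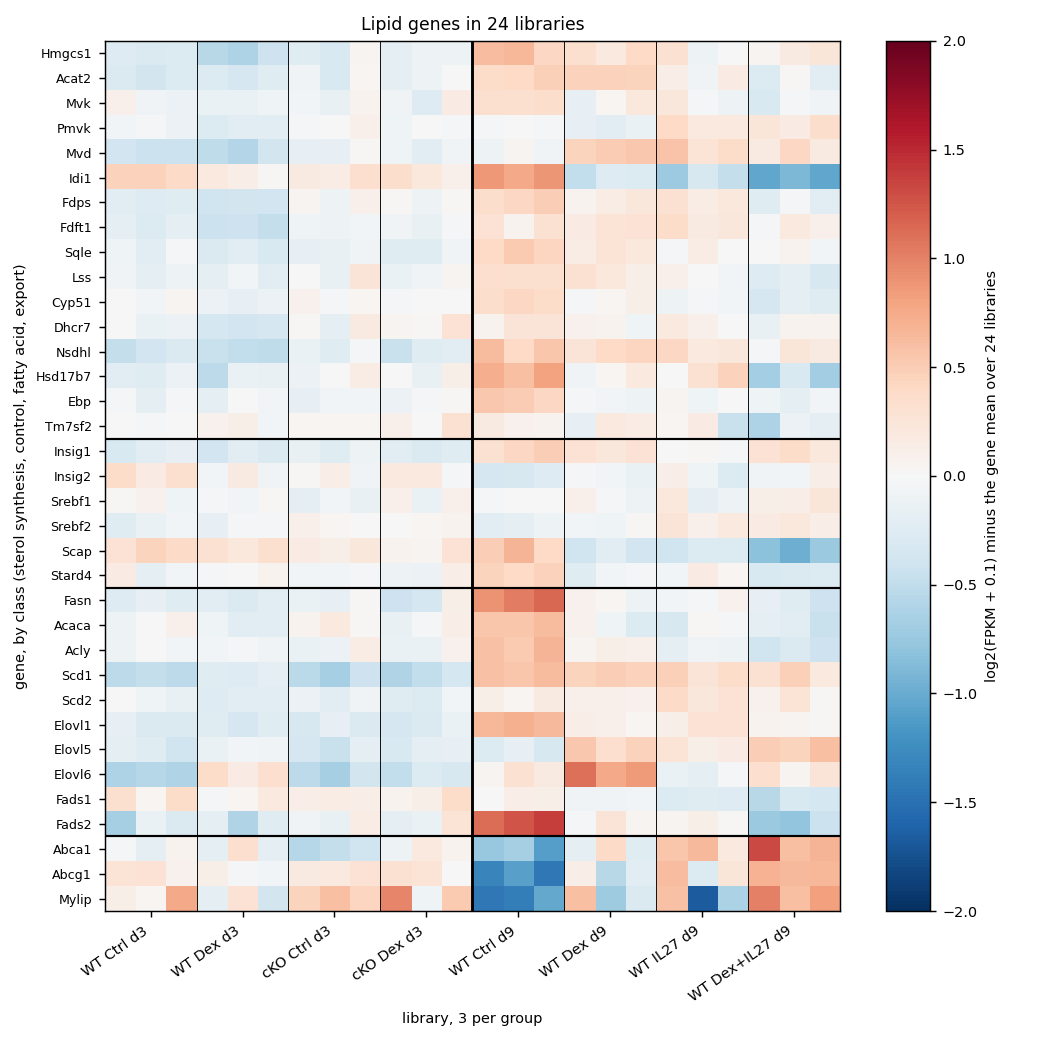
Levels of the 35 genes (rows, by class) in 24 libraries (columns, 3 per group, day 3 left of the thick line), as log2(FPKM + 0.1) minus the gene's mean over the 24 libraries. Most rows of the sterol and fatty acid classes are high in the 3 Ctrl libraries of day 9, where the export genes Abca1, Abcg1 and Mylip are low.

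Changes below are log2 fold changes ± SE from edgeR's quasi-likelihood test. The SE was worked back from the test, as the size of the change over the square root of its F, and is approximate. P-values were adjusted over all genes tested by Benjamini and Hochberg, and a gene was called at an adjusted p under 0.05. Dexamethasone in WT cells at day 3 was compared first. Elovl6, the elongase that turns palmitate into stearate, rose, and Idi1 fell. Of the 35 genes, 2 rose (4.93% of all 11967 genes tested) and 2 fell (4.5% of all genes), and 31 were not called. At this threshold members were thus called about as often as genes in general. At an unadjusted p under 0.05 there were 14 of the 35 genes, 8 of them sterol genes, against 2741 of all 11967. The median change of the 35 genes was -0.06, against 0.01 over all genes. Of the 16 sterol genes, 13 lay below 0, with a median of -0.10, and 2 of them passed the test. Other measures moved here too: Cd8a (-0.21) and Cd8b1 (-0.17) fell, and Cd3e (0.27) and the ribosomal RNA precursor Rn45s (0.19) rose. Each of these calls was lost under 1 or more alternatives. The cycling-cell genes Mki67, Top2a, Rrm2, Ccnb1 and Cdk1 were not called. The part of these in the results was not tested.

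Elovl6 was at 30.6, 31.9 and 31.4 CPM in Ctrl and 62.7, 54.0 and 60.9 CPM in Dex libraries, so each Dex library lay above each Ctrl library. The change was 0.92 ± 0.09 (adjusted p = 3.31e-06), or 1.89-fold. Scd1, which desaturates the stearate that Elovl6 makes, was at 59.8, 62.8 and 60.7 CPM in Ctrl and 74.8, 73.1 and 77.3 in Dex libraries, a rise of 0.30 ± 0.08 (adjusted p = 0.0212). The related desaturase Scd2 was at 475, 449 and 429 CPM in WT Ctrl and 405, 414 and 415 CPM in WT Dex libraries and was not called (-0.13 ± 0.06, adjusted p = 0.179). Scd1 and Scd2 are close relatives in sequence, and counting may split reads between them.

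Idi1 was at 369.8, 373 and 353 CPM in Ctrl and 312, 298 and 274 in Dex libraries, a change of -0.31 ± 0.07 (adjusted p = 0.00581). Fdft1, the squalene synthase that commits farnesyl diphosphate to sterols, was at 112, 106 and 111 CPM in WT Ctrl and 95.7, 96.7 and 92.1 CPM in WT Dex libraries (-0.21 ± 0.06, adjusted p = 0.0228). In both genes the Ctrl and Dex libraries did not overlap. Hmgcs1 was at 309, 303 and 307 CPM in WT Ctrl and 255, 243 and 279.6 CPM in WT Dex libraries, which missed the threshold (-0.24 ± 0.08, adjusted p = 0.057). Sqle, the squalene epoxidase, and Fdps had values of -0.14 ± 0.06 and -0.12 ± 0.05 and were not called.

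Among the control genes Insig1 was at 96.7, 103 and 107 CPM in Ctrl and 93.3, 104 and 99.2 in Dex libraries, and these ranges overlapped. Srebf1 was at 134, 140.3 and 125 CPM in WT Ctrl and 131, 129 and 135 CPM in WT Dex libraries. Srebf2 was at 83.5, 90.9 and 96.0 CPM in WT Ctrl and 90.1, 98.0 and 97.1 CPM in WT Dex libraries. None of the 6 control genes was called, and the groups overlapped for these 3. Of the export genes Abcg1 was at 51.4, 52.4 and 45.6 CPM in WT Ctrl and 47.4, 42.2 and 41.3 CPM in WT Dex libraries. Mylip was at 3.01, 2.89 and 4.96 CPM in WT Ctrl and 2.43, 3.52 and 2.10 CPM in WT Dex libraries. Abca1 was at 1.38, 1.15 and 1.52 CPM in WT Ctrl and 1.12, 2.06 and 1.15 CPM in WT Dex libraries. None of the 3 export genes was called. The calls of Scd1 and Fdft1 were each lost on leaving out 1 of several libraries: for Scd1, Ctrl 1, 2 or 3 or Dex 1 or 3, and for Fdft1, Ctrl 1 or 3 or Dex 1 or 3. Their highest adjusted p over the alternatives was 0.0878 and 0.103, and Elovl6 and Idi1 stayed called under all alternatives run.

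In cKO cells at day 3, Dex changed none of the 35 genes by edgeR's test. The same held over the whole table, with 0.0% of genes called up and 0.0% down. At an unadjusted p under 0.05 there were 399 genes in all, 2 of them among the 35 genes, and DESeq2's Wald test and limma also called 0 genes. Elovl6 was at 33.2, 30.2 and 37.2 CPM in cKO Ctrl and 33.8, 40.0 and 38.0 in cKO Dex libraries (0.15 ± 0.09, adjusted p = 1.0), and these ranges sat near that of WT Ctrl. Idi1 was at 309, 299.9 and 343 CPM in cKO Ctrl and 344, 314 and 291 CPM in cKO Dex libraries (-0.01 ± 0.07). The median of the 35 genes was -0.01, against 0.00 over all genes.

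The Dex change in WT cells minus that in cKO cells was fitted directly. Elovl6 differed, by 0.77 ± 0.13 (adjusted p = 0.0025), and it was the 1 member called higher in WT (1.57% of all genes were called in that direction and 1.38% in the other). For Idi1 the difference was -0.31 ± 0.09 (adjusted p = 0.0965) and for Scd1 0.24 ± 0.11 (adjusted p = 0.291), so a difference between genotypes was not shown for either. Insig1, Srebf1, Srebf2 and Fasn had differences of 0.03, -0.17, 0.09 and 0.10, none called.

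Genotypes were then compared within each treatment, and these comparisons share libraries with those on Dex. Without Dex, 2 sterol genes were higher in cKO than in WT cells and none of the 35 was lower (1.38% of all genes were called up and 0.986% down). Fdps was at 336, 331 and 335 CPM in WT and 412, 371 and 428 in cKO libraries (0.27 ± 0.05, adjusted p = 0.0129). Mvd, the decarboxylase that makes isopentenyl diphosphate, was at 74.3, 72.4 and 72.1 CPM in WT Ctrl and 87.6, 86.8 and 99.2 CPM in cKO Ctrl libraries (0.32 ± 0.07, adjusted p = 0.0277). Each cKO library lay above each WT library for both genes. Neither call was firm: that of Fdps was lost without WT Ctrl 1 or 2 or cKO Ctrl 4 or 6 and that of Mvd without any 1 WT Ctrl library or cKO Ctrl 4 or 6. The highest adjusted p was 0.0678 for Fdps and 0.102 for Mvd. Cd3e (0.32, adjusted p = 0.0189) and Rn45s (0.25, 0.0225) were also higher in cKO Ctrl cells, and the other CD8 T cell markers were not called. The part of these in the results was not tested.

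With Dex in both genotypes, 5 of the 16 sterol genes were higher in cKO cells and Elovl6 was lower. Among all genes 3.63% were called up and 3.28% down. The sterol genes had a median of 0.18, against 0.00 over all genes, with values above 0 in 16 of 16. Without Dex their median was 0.12, also against 0.00 over all genes, with values above 0 in 15 of 16. In the Dex change in WT cells minus that in cKO cells, none of the 16 was called. Fdps was at 305, 311 and 306 CPM in WT Dex and 402, 372 and 402 in cKO Dex libraries. Fdft1 was at 95.7, 96.7 and 92.1 CPM in WT Dex and 121, 115 and 124 CPM in cKO Dex libraries (0.34 ± 0.06, adjusted p = 0.000605). For both genes the genotypes did not overlap. Hmgcs1 was at 255, 243 and 279.6 CPM in WT Dex and 329, 349.7 and 348 CPM in cKO Dex libraries (0.40 ± 0.08, adjusted p = 0.00278). Dhcr7, which catalyses the last step to cholesterol, was at 47.2, 46.1 and 47.3 CPM in WT Dex and 61.7, 61.1 and 73.3 CPM in cKO Dex libraries (0.48 ± 0.09, adjusted p = 0.00325). Mvd was higher in cKO cells by 0.36 ± 0.07 (adjusted p = 0.00468). Elovl6 was lower in cKO cells, with a change of -0.67 ± 0.09 (adjusted p = 0.000122). Fdft1 shares exon bases with Ctsb on the other strand, and Fdps with Gm43738 on its own strand, so reads there may not be told apart. Leaving out any 1 library lost none of these 6 calls. Of the CD8 T cell markers, Cd8a (0.40, adjusted p = 0.000123), Cd8b1 (0.28, 0.000865) and Cd3d (0.21, 0.0374) were also higher in cKO Dex cells. Cd3e, Cd3g, Rn45s and the cycling-cell genes were not called. The part of these shifts in the results was not tested.

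**Figure D2:**
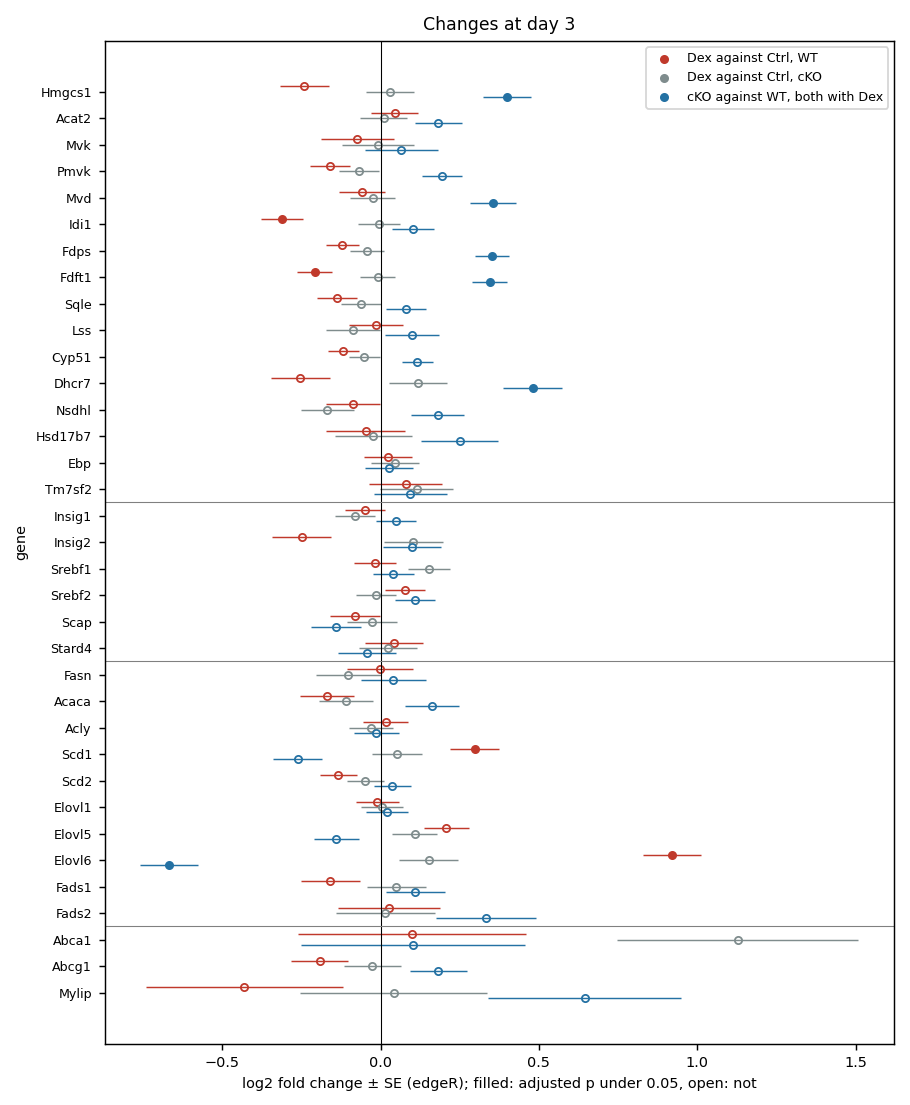
Log2 fold changes ± SE (horizontal axis) of the 35 genes (vertical axis, by class) at day 3 for Dex against Ctrl in WT cells (red), the same in cKO cells (grey) and cKO against WT with Dex (blue). Filled points were called and open points were not. Elovl6 stands at 0.92 in WT cells and 0.15 in cKO cells, and the blue points of the sterol genes lie to the right of 0.

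At day 9 the additions moved more genes, here and across the table. Dex lowered Idi1, Fasn, Fads2 and Scap and raised the export genes Abca1, Abcg1 and Mylip. Of the 35 genes, 6 rose and 15 fell with Dex, where 28.2% and 27.4% of all 12320 genes tested did. With IL27, 7 rose and 21 fell (29.3% and 28.1% of all genes). With Dex+IL27, 8 rose and 20 fell (34.3% and 32.6% of all genes). In each comparison the genes that fell were a larger share of the 35 than of all genes, and those that rose a smaller share. This difference was not tested, and the 35 genes were chosen with earlier results of these data known. The median changes of the 35 genes were -0.13, -0.28 and -0.37, while those of all genes were 0.03, 0.03 and 0.05. The 3 comparisons share the Ctrl libraries, so their values are given side by side, and their likeness was not assessed. Other measures moved with these groups. The share of counts from Rn45s, a ribosomal RNA precursor, was 9.11% in Ctrl, 14.6% with Dex, 14.1% with IL27 and 16.04% with Dex+IL27. The summed FPKM of 5 genes of cycling cells (Mki67, Top2a, Rrm2, Ccnb1, Cdk1) was 534.0 ± 46.8, 267.5 ± 32.7, 160.1 ± 4.21 and 134.2 ± 15.8 in the same order. With IL27 and with both all 5 fell, whereas with Dex Rrm2 (-1.98), Cdk1 (-0.61) and Ccnb1 (-0.49) fell and Mki67 (-0.18, adjusted p = 0.0941) and Top2a (-0.12, 0.461) were not called. The summed CD4 T cell markers (Cd4, Zbtb7b, Cd40lg) were at 6.74 to 13.0 FPKM in Ctrl and 3.84 to 6.69 in the other libraries. Its genes did not move together: Cd40lg fell (-3.30, -3.70 and -4.39 in the order Dex, IL27 and both), Zbtb7b rose (1.04, 1.38 and 0.93), and Cd4 rose with IL27 (2.58, adjusted p = 0.00466) from 22 to 131 counts over 3 libraries and was not called with Dex (-0.46) or both (1.63). Of the CD8 T cell markers, Cd3d, Cd3e and Cd3g rose in each comparison. Cd8a fell with IL27 (-0.57) and with both (-0.31), and Cd8b1 fell with IL27 (-0.33). Neither was called with Dex. Summed myeloid and dendritic markers were at 0.92, 1.06, 1.42 and 2.70 FPKM in the order Ctrl, Dex, IL27 and both. Itgam rose (3.40, 3.13 and 5.65) and did not pass 2.31 FPKM, while Cd14 was called in none and Flt3 only with IL27 (1.66). The part of these in the results below was not tested.

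More sterol synthesis genes fell than rose at day 9. With Dex 1 rose and 8 fell of 16 (28.2% and 27.4% of all genes), with IL27 2 rose and 10 fell (29.3% and 28.1%), and with Dex+IL27 2 rose and 11 fell (34.3% and 32.6%). Their medians were -0.19, -0.29 and -0.42. Idi1 fell most. It was at 468, 433 and 474 CPM in Ctrl, 185, 217 and 214 with Dex, 158, 206 and 186 with IL27 and 129, 141 and 129 with Dex+IL27. The Ctrl libraries stood above all others, and the Dex+IL27 libraries below all others. The changes were -1.16 ± 0.09 (adjusted p = 8.59e-08), -1.32 ± 0.09 (3.38e-08) and -1.79 ± 0.09 (7.24e-10), and with both additions the level was 3.45-fold lower. Counting may split reads between Idi1 and its relative Idi2, which also fell with IL27 and with both and is given with the wider list.

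Fdps, the most abundant of the 16 genes, was at 481, 503 and 528 CPM in Ctrl, 401, 423 and 443 with Dex, 475, 420.1 and 443 with IL27 and 328, 373 and 335 with Dex+IL27. It fell in each comparison, with changes of -0.26 ± 0.07 (adjusted p = 0.00476), -0.18 ± 0.07 (0.036) and -0.55 ± 0.07 (4.22e-06). Sqle, which with oxygen makes squalene epoxide, was at 198, 216 and 199.9 CPM in Ctrl, 167, 184 and 174 with Dex, 148, 166 and 151 with IL27 and 154, 160.2 and 148 with Dex+IL27. Its changes were -0.23 ± 0.07, -0.40 ± 0.07 and -0.41 ± 0.07, all called.

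Cyp51, the lanosterol demethylase, was at 288, 303 and 292 CPM in Ctrl, 224, 234 and 247 with Dex, 215, 223 and 219.9 with IL27 and 183, 201 and 196 with Dex+IL27. It fell in each comparison (-0.32 ± 0.06, -0.42 ± 0.06 and -0.60 ± 0.06), while Akap9, which shares exon bases with it on the other strand, rose by 0.90, 1.00 and 1.25. Ebp, a sterol isomerase, was at 74.6, 72.7 and 68.3 CPM in Ctrl, 50.1, 49.8 and 48.0 with Dex, 54.3, 48.5 and 51.5 with IL27 and 49.5, 46.2 and 50.8 with Dex+IL27. Its changes were near each other at -0.54 ± 0.07, -0.48 ± 0.07 and -0.56 ± 0.07. Hsd17b7, a ketoreductase of sterol demethylation, was at 34.3, 31.3 and 36.0 CPM in Ctrl, 19.7, 21.2 and 23.7 with Dex, 20.9, 25.3 and 28.8 with IL27 and 12.9, 16.7 and 12.9 with Dex+IL27. It fell by more with both additions (-1.25 ± 0.14, adjusted p = 1.03e-06) than with Dex (-0.65 ± 0.13) or IL27 (-0.44 ± 0.13), a difference tested further on. Lss, the lanosterol synthase, was at 142, 140.1 and 139.6 CPM in Ctrl, 139.5, 130.2 and 122 with Dex, 122, 112 and 109 with IL27 and 96.2, 99.2 and 92.3 with Dex+IL27. It was not called with Dex (-0.10 ± 0.07) and fell with IL27 (-0.30 ± 0.07) and with both (-0.55 ± 0.07).

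Some sterol genes went the other way. Mvd was at 86.4, 96.4 and 88.0 CPM in Ctrl, 127, 134 and 136 with Dex, 140.5, 113 and 121 with IL27 and 108, 126 and 108 with Dex+IL27. It rose in each comparison, by 0.55 ± 0.09 (adjusted p = 8.53e-05), 0.47 ± 0.09 (0.000346) and 0.34 ± 0.09 (0.00325). Idi1, which acts on the product of Mvd, fell in the same libraries. Pmvk, the phosphomevalonate kinase, was at 68.6, 70.3 and 68.2 CPM in Ctrl, 63.1, 61.2 and 64.4 with Dex, 94.1, 80.8 and 80.8 with IL27 and 84.9, 80.2 and 92.6 with Dex+IL27. It rose with IL27 (0.30 ± 0.08) and with both (0.31 ± 0.08) and was not called with Dex (-0.13 ± 0.08). Hmgcs1 changed by -0.25 ± 0.10, -0.47 ± 0.10 and -0.37 ± 0.10, all called, and Mvk, the mevalonate kinase, by -0.29 ± 0.12 and -0.44 ± 0.12 where it was called. Nsdhl, a sterol dehydrogenase, changed by -0.23 ± 0.09 and -0.36 ± 0.10 where it was called, and its Ctrl and IL27 libraries overlapped. Acat2 fell with IL27 (-0.33 ± 0.08) and with both (-0.53 ± 0.08). Fdft1, Dhcr7 and Tm7sf2, a sterol reductase, were not called in any of the 3 comparisons. Fdft1 shares exon bases with Ctsb, which rose with Dex (0.54) and IL27 (0.57). Tm7sf2 shares them with Vps51 on its own strand, which rose with IL27 (0.30), so reads of these pairs may not be told apart.

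Calls near the threshold depended on single libraries. For Dex these were Hmgcs1 (lost without Ctrl 1 or 2 or Dex 1 or 2, adjusted p up to 0.148) and Mvk (lost without any 1 Ctrl library or Dex 1 or 2, up to 0.205). For IL27 they were Fdps (lost without Ctrl 2 or 3 or IL27 2 or 3, up to 0.16) and Nsdhl (lost without Ctrl 1 or 3 or IL27 2 or 3, up to 0.161).

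Among the control genes Scap, which escorts SREBPs to their cleavage, fell most. It was at 53.8, 61.6 and 50.2 CPM in Ctrl, 29.2, 33.5 and 29.3 with Dex, 29.2, 31.7 and 32.0 with IL27 and 22.2, 19.6 and 23.5 with Dex+IL27. The Ctrl libraries stood above all others, with changes of -0.85 ± 0.10 (adjusted p = 5.23e-06), -0.83 ± 0.10 (5.57e-06) and -1.34 ± 0.10 (2.61e-08). Stard4, a cytosolic sterol carrier, was at 51.0, 49.5 and 51.1 CPM in Ctrl, 31.9, 36.4 and 37.0 with Dex, 36.4, 42.1 and 38.8 with IL27 and 31.1, 31.3 and 31.8 with Dex+IL27. It fell in each comparison (-0.53 ± 0.08, -0.37 ± 0.08 and -0.69 ± 0.08).

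The genes of the factors themselves moved less. Srebf1 was at 124, 126 and 125 CPM in Ctrl, 137, 125 and 118 with Dex, 149, 110.4 and 119 with IL27 and 141, 141 and 155 with Dex+IL27, and it was called in none of the 12 comparisons. Its exons overlap those of Rai1 on the other strand, which fell with IL27 (-0.39), and reads of the pair may not be told apart. Srebf2 was at 81.8, 82.7 and 88.6 CPM in Ctrl, 92.5, 90.9 and 97.6 with Dex, 116, 102 and 109.9 with IL27 and 109, 112 and 108 with Dex+IL27. It rose with IL27 (0.37 ± 0.07, adjusted p = 0.000236) and with both (0.38 ± 0.07, 0.000144), while 10 and 11 of the 16 sterol genes fell in these comparisons. Insig1, itself an SREBP target, was at 142, 154 and 161 CPM in Ctrl, 141, 136 and 141 with Dex, 116, 117 and 114 with IL27 and 144, 151 and 137 with Dex+IL27. It fell with IL27 (-0.40 ± 0.06, adjusted p = 7.60e-05) and was called neither with Dex (-0.13 ± 0.06) nor with both (-0.08 ± 0.06). Insig2 was at 30.0, 30.4 and 31.8 CPM in Ctrl, 37.5, 37.1 and 34.9 with Dex, 42.2, 35.8 and 31.7 with IL27 and 37.1, 37.3 and 42.9 with Dex+IL27, and rose with both additions (0.35 ± 0.10). That call was lost when libraries were scaled by their totals alone (adjusted p = 0.0615).

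Of the 10 fatty acid genes, 2 rose and 5 fell with Dex (28.2% and 27.4% of all genes), 2 rose and 8 fell with IL27 (29.3% and 28.1%), and 1 rose and 7 fell with Dex+IL27 (34.3% and 32.6%). Fasn was at 268, 292 and 315 CPM in Ctrl, 153, 149 and 134 with Dex, 140.3, 141 and 154 with IL27 and 131, 123 and 109.9 with Dex+IL27. The Ctrl libraries stood apart above the rest, with changes of -1.004 ± 0.08 (adjusted p = 1.42e-07), -1.01 ± 0.08 (1.34e-07) and -1.26 ± 0.08 (5.20e-09). Acly was at 605, 583 and 642 CPM in Ctrl, 421, 444 and 437 with Dex, 357, 384 and 381 with IL27 and 314, 338 and 311 with Dex+IL27. Its changes were -0.49 ± 0.06, -0.71 ± 0.06 and -0.92 ± 0.06, and Acaca, the enzyme between Acly and Fasn, changed by -0.67 ± 0.11, -0.68 ± 0.11 and -0.84 ± 0.11. These 3 genes of the core route thus fell in all 3 comparisons.

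Fads2 was at 41.2, 45.9 and 49.4 CPM in Ctrl, 18.8, 23.0 and 19.8 with Dex, 20.0, 20.7 and 19.5 with IL27 and 11.6, 11.1 and 14.5 with Dex+IL27. It was 3.67-fold lower with both additions, and its changes were -1.15 ± 0.12 (adjusted p = 1.05e-06), -1.18 ± 0.12 (7.13e-07) and -1.88 ± 0.12 (4.37e-09). Fads1, the desaturase that follows it in the same route, was at 54.2, 59.5 and 58.4 CPM in Ctrl, 52.3, 52.2 and 52.3 with Dex, 45.7, 45.8 and 46.0 with IL27 and 38.0, 44.6 and 43.6 with Dex+IL27. It was called with IL27 (-0.32 ± 0.08) and with both (-0.45 ± 0.08) and not with Dex (-0.13 ± 0.08).

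The elongases did not move together. Elovl1, which extends very long saturated chains, was at 183, 189 and 180.4 CPM in Ctrl, 127, 125 and 119 with Dex, 126, 141 and 143 with IL27 and 124, 122 and 120.4 with Dex+IL27, and fell in each comparison (-0.58 ± 0.06, -0.43 ± 0.06 and -0.59 ± 0.06). Its exons overlap those of the cell cycle gene Cdc20 on the other strand, which changed by -0.38, -1.35 and -1.29, and reads of the pair may not be told apart. Elovl5, which extends polyunsaturated chains, was at 136, 147 and 131 CPM in Ctrl, 241, 209 and 227 with Dex, 202, 178 and 187 with IL27 and 236, 229 and 255 with Dex+IL27. It rose in each comparison (0.71 ± 0.07, 0.45 ± 0.07 and 0.80 ± 0.07), while Fads2 of the same route fell. Elovl6 was at 47.1, 56.4 and 51.4 CPM in Ctrl, 98.9, 78.6 and 82.6 with Dex, 42.2, 39.9 and 45.4 with IL27 and 59.4, 48.4 and 56.2 with Dex+IL27. It rose with Dex (0.75 ± 0.11, adjusted p = 2.68e-05), fell with IL27 (-0.28 ± 0.11, 0.0355) and was not called with both (0.08 ± 0.11, 0.504).

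The desaturases of stearate moved little. Scd1 was at 124, 123 and 129 CPM in Ctrl, 114, 119 and 115 with Dex, 118, 99.7 and 108 with IL27 and 105, 118 and 98.1 with Dex+IL27, with calls for IL27 (-0.21 ± 0.08) and for both (-0.23 ± 0.08). Scd2 was at 496, 468 and 514 CPM in Ctrl, 489.7, 493 and 488 with Dex, 601, 533 and 560.4 with IL27 and 498, 561 and 477 with Dex+IL27, with 1 call, a rise with IL27 (0.20 ± 0.07). With IL27 the calls of Scd1 (lost without any 1 Ctrl library or IL27 2 or 3), Scd2 (without Ctrl 1 or 2 or IL27 1) and Elovl6 (without Ctrl 2 or 3 or IL27 1 or 2) reached adjusted p of 0.127, 0.106 and 0.137. With both additions Scd1 was lost without Ctrl 3 or Dex+IL27 1 or 3 (up to 0.0897).

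**Figure D3:**
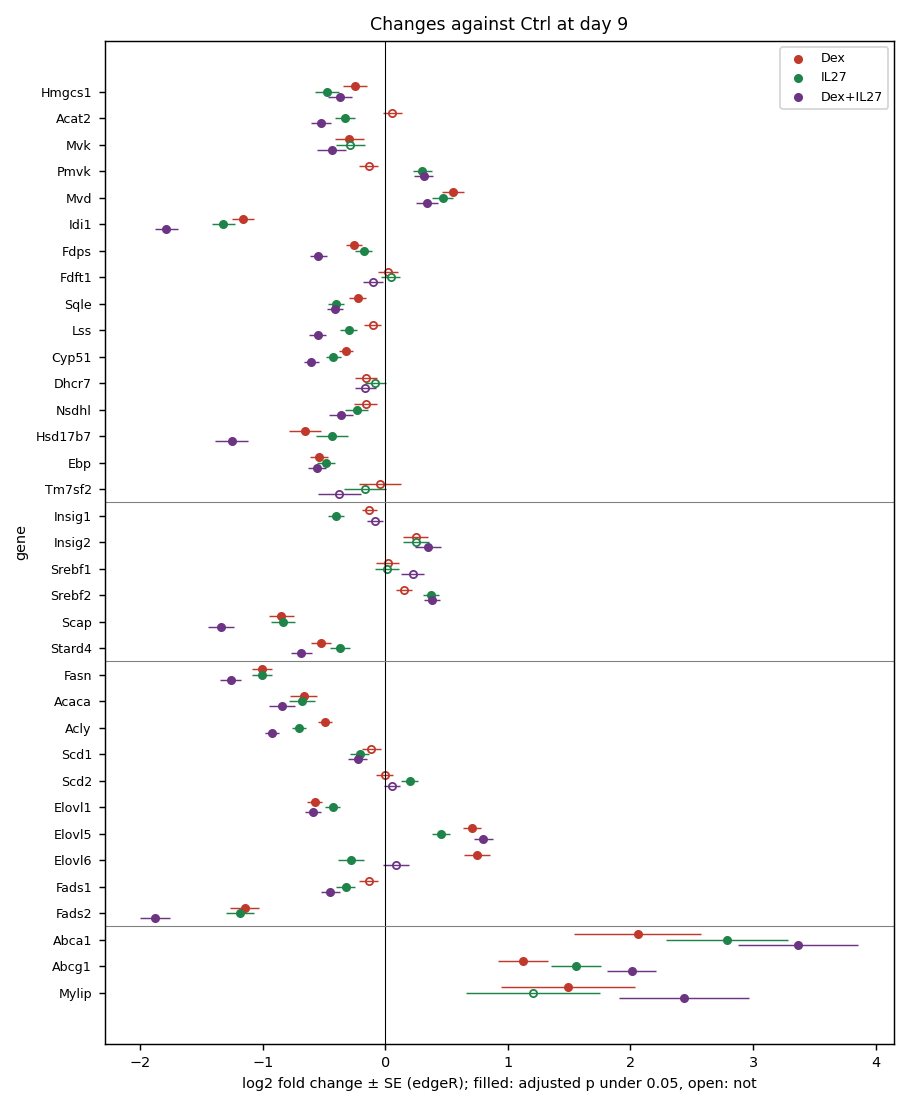
Log2 fold changes ± SE (horizontal axis) against Ctrl of the 35 genes (vertical axis, by class) at day 9 with Dex (red), IL27 (green) and Dex+IL27 (purple). Filled points were called and open points were not. Idi1, Scap, Fasn and Fads2 lie left of -0.80 in each comparison, while Mvd, Elovl5, Abca1 and Abcg1 lie right of 0.

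The export genes went up from low levels. Abcg1, which passes cholesterol to lipoproteins, was at 16.01, 19.04 and 14.8 CPM in Ctrl, 45.2, 28.0 and 35.2 with Dex, 63.9, 33.9 and 48.8 with IL27 and 68.2, 65.7 and 66.8 with Dex+IL27. No library with an addition overlapped the Ctrl libraries, and the changes were 1.12 ± 0.20 (adjusted p = 0.000257), 1.56 ± 0.20 (1.07e-05) and 2.01 ± 0.20 (4.46e-07). Its level with both additions was 11.6 ± 0.174 FPKM, against 8.43 ± 0.637 in Ctrl cells of day 3. Abca1, which loads lipid onto apolipoproteins, was at 0.388, 0.508 and 0.104 CPM in Ctrl, 1.11, 2.08 and 0.994 with Dex, 2.55, 2.74 and 1.68 with IL27 and 4.96, 2.62 and 2.82 with Dex+IL27. It rose by 2.06 ± 0.52, 2.79 ± 0.50 and 3.37 ± 0.49, but these rest on 18, 68, 125 and 179 counts summed over the 3 libraries of each group, and no group's mean passed 0.343 FPKM. Mylip was at 0.775, 0.847 and 1.15 CPM in Ctrl, 4.20, 1.53 and 2.11 with Dex, 4.19, 0.628 and 1.63 with IL27 and 5.76, 4.26 and 5.07 with Dex+IL27. It rose with Dex (1.49 ± 0.54, adjusted p = 0.0305) and with both (2.43 ± 0.53, 0.000856) and was not called with IL27 (1.21 ± 0.55, 0.0726), whose libraries spread widely. The Dex call of Mylip was lost without Ctrl 1 or 2 or Dex 1 and in limma (up to 0.182), and that of Abca1 in limma without a filter (0.12).

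**Figure D4:**
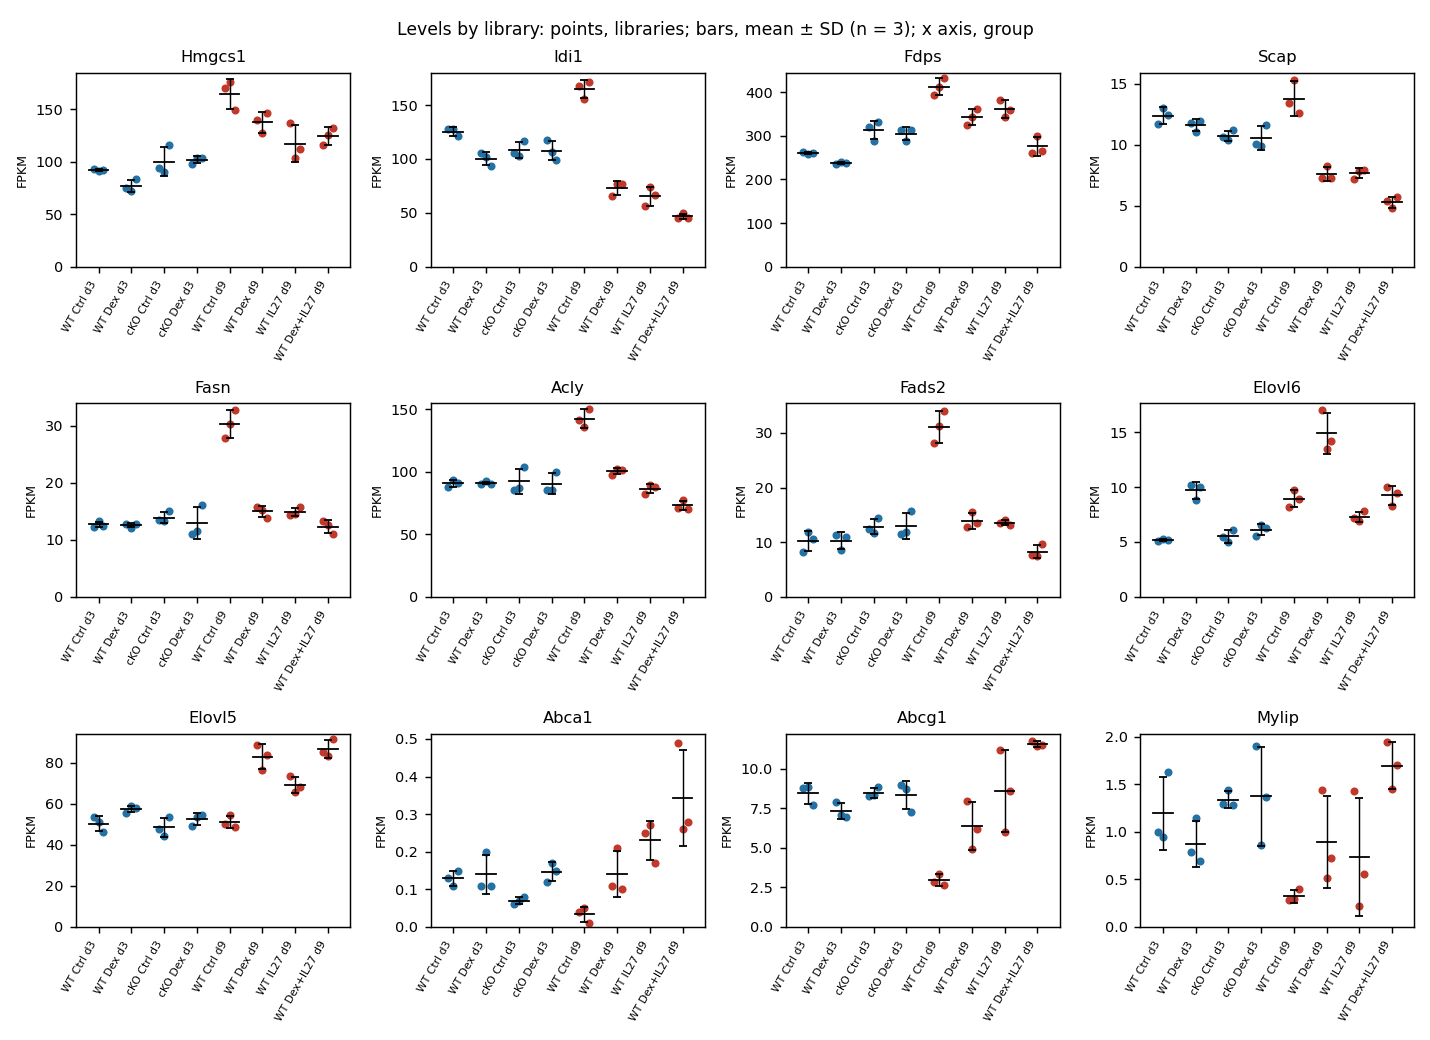
Levels of 12 of the genes in FPKM (vertical axes, from 0) by group (horizontal axes). Points are libraries (blue for day 3, red for day 9), and bars are mean ± SD (n = 3). Fasn and Fads2 are highest in Ctrl cells of day 9, Elovl6 is high with Dex alone at both days in WT cells, and Abcg1 is lowest in Ctrl cells of day 9.

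Both additions were next compared with each alone. When IL27 was added to Dex, more of the genes fell than rose: 4 of the 35 rose and 13 fell (14.9% and 17.1% of all genes), with a median of -0.16 against 0.00 over all genes. Acat2 was at 222, 223 and 219 CPM with Dex and 136, 165 and 142 with Dex+IL27 (-0.58 ± 0.08, adjusted p = 0.00011). Idi1 (-0.63 ± 0.09), Lss (-0.45 ± 0.07), Hsd17b7 (-0.60 ± 0.14), Fdps (-0.29 ± 0.07) and Cyp51 (-0.28 ± 0.06) also fell, and Pmvk rose (0.45 ± 0.08). Among the fatty acid genes Acly (-0.43 ± 0.06), Elovl6 (-0.66 ± 0.11), Fads2 (-0.73 ± 0.12) and Fads1 (-0.31 ± 0.08) fell. Scap fell (-0.49 ± 0.10) and Abcg1 rose (0.89 ± 0.19, adjusted p = 0.00291). Sqle, Srebf2, Fasn and Abca1 were called with changes of -0.18, 0.23, -0.26 and 1.31, and each lost its call without 1 of several libraries: Dex 2 or 3 or Dex+IL27 1 or 3 for Sqle, Dex 1 or 2 or Dex+IL27 2 for Srebf2, Dex 1 or 2 or Dex+IL27 3 for Fasn, and Dex 1 or 3 or Dex+IL27 1 for Abca1. Of all calls 46.5% were up, and 34.6% when libraries were scaled by totals alone.

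Added to IL27, Dex raised 3 of the 35 genes and lowered 10 (11.7% and 14.3% of all genes), with a median of -0.13 against 0.00 over all genes. Without IL27 1, 7 rose and 11 fell, with a median of -0.05. With only the groups compared, 3 rose and 6 fell. Hsd17b7 (-0.82 ± 0.14, adjusted p = 0.000633), Fdps (-0.37 ± 0.07, 0.0012), Idi1 (-0.47 ± 0.09) and Fads2 (-0.69 ± 0.12) fell, as did Scap (-0.51 ± 0.10). Insig1 rose (0.32 ± 0.06, adjusted p = 0.0022), as did Elovl5 (0.35 ± 0.07) and Elovl6 (0.36 ± 0.11). None of the 3 export genes was called, Mylip included (1.23 ± 0.49, adjusted p = 0.0768). The calls of Lss, Cyp51, Stard4, Fasn, Acly and Elovl6 were each lost under 1 or more alternatives, with adjusted p up to 0.0622, 0.135, 0.0677, 0.138, 0.0661 and 0.0942. The libraries whose removal did so were Dex+IL27 3 for Lss, IL27 2 or 3 or Dex+IL27 1 or 3 for Cyp51, IL27 2 for Stard4, IL27 2 or 3 or Dex+IL27 2 or 3 for Fasn, and IL27 2 or Dex+IL27 1 or 3 for Elovl6. Of all calls 45.0% were up, and 33.6% when libraries were scaled by totals alone.

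The interaction of Dex with IL27, the change with both minus the sum of the changes with each, was positive for 7 of the 35 genes and negative for 2 (13.7% and 14.7% of all genes). With all 24 libraries in 1 fit it was positive for 6 and negative for 6. Fasn (0.75 ± 0.12, adjusted p = 0.000324), Idi1 (0.69 ± 0.13, 0.00111), Ebp (0.47 ± 0.11, 0.00437) and Elovl1 (0.41 ± 0.09, 0.0033) fell with each addition and fell by less with both than the sum of the falls. Mvd (-0.68 ± 0.12, 0.00109) rose with each and rose by less with both. For Insig1 the interaction was 0.45 ± 0.09 (0.00208). For Fads2 (0.45 ± 0.17, 0.055), Scap (0.34 ± 0.14, 0.0925), Elovl6 (-0.38 ± 0.15, 0.0681) and Abcg1 (-0.67 ± 0.28, 0.0846) no interaction was called. The calls of Acaca (0.50; lost without Ctrl 3, Dex 3 or Dex+IL27 1), Acly (0.27; without Ctrl 3 or Dex 1) and Elovl5 (-0.36; without Ctrl 1 or 3 or Dex 1) rest on single libraries.

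The change with Dex in WT cells was also compared between the days, which differ in culture history too. Of the 35 genes, 7 had a higher and 11 a lower change at day 9 than at day 3 (20.4% and 19.2% of 12666 genes). Fasn had -1.004 at day 9 and 0.00 at day 3 in the fits of each day, and a difference of -0.97 ± 0.14 in the fit over 24 libraries (adjusted p = 7.20e-06). Idi1 fell at both days and by more at day 9 (difference -0.81 ± 0.12, adjusted p = 6.17e-06). Scap (-0.73 ± 0.13), Stard4 (-0.53 ± 0.12), Ebp (-0.53 ± 0.10), Elovl1 (-0.53 ± 0.09), Fads2 (-1.14 ± 0.21), Acly (-0.47 ± 0.10), Scd1 (-0.38 ± 0.11) and Acaca (-0.46 ± 0.14) also had lower changes at day 9. Abcg1 (1.35 ± 0.23, adjusted p = 5.37e-05), Abca1 (1.99 ± 0.61), Mylip (1.95 ± 0.65), Mvd (0.65 ± 0.12), Insig2 (0.53 ± 0.14) and Elovl5 (0.54 ± 0.11) had higher changes. For Elovl6 no difference between the days was called (-0.14 ± 0.14, adjusted p = 0.472), and it rose with Dex at each. The call of Fdft1 (0.26) was lost under 13 of 22 alternatives, and those of Hsd17b7 (without Dex 2 of day 3), Abca1 (without Dex 2 of day 9) and Mylip (without Ctrl 3 of day 3 or Dex 1 of day 9) on leaving out 1 library.

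A wider list of 63 genes of the same pathways was read from the same fits. With Dex in WT cells at day 3, 1 of the 54 tested rose and 4 fell (4.93% and 4.5% of all genes). Me1, malic enzyme, which supplies NADPH to fatty acid synthesis, was at 0.00, 0.482 and 0.345 CPM in Ctrl and 2.68, 5.45 and 2.86 in Dex libraries (3.68 ± 0.65, adjusted p = 0.00121), from 13 and 170 counts summed over 3 libraries, so the size of the change is loosely set. Mid1ip1, an activator of acetyl-CoA carboxylase (-0.35 ± 0.07), Acsl4, an acyl-CoA synthetase (-0.29 ± 0.06), Soat2, a sterol esterifying enzyme (-0.40 ± 0.10), and Msmo1, a sterol oxidase (-0.18 ± 0.05), fell. With Dex in cKO cells and in cKO against WT Ctrl cells 0 and 0 of these genes were called, with 1 and 11 at an unadjusted p under 0.05. With Dex in both genotypes, Lpin1, a phosphatidate phosphatase (0.62 ± 0.11), and Mid1ip1 (0.25 ± 0.07) were higher in cKO and Me1 lower (-2.93 ± 0.59). The Dex change of Mid1ip1 was lower in WT than in cKO cells (-0.43 ± 0.09, adjusted p = 0.016).

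At day 9, 55 of the wider list were tested. With Dex 14 rose and 17 fell (28.2% and 27.4% of all genes), with IL27 19 rose and 18 fell (29.3% and 28.1%), and with both 20 rose and 23 fell (34.3% and 32.6%). Npc2, which helps to bring sterols out of lysosomes, rose by 1.22 ± 0.12 with Dex, 1.01 ± 0.12 with IL27 and 1.66 ± 0.12 with both. Its partner Npc1 rose by 0.70 ± 0.08 with Dex. Tmem97, an NPC1-binding protein of the endoplasmic reticulum, fell, with changes of -1.11 ± 0.08, -1.10 ± 0.08 and -1.64 ± 0.09. Acadl, a mitochondrial dehydrogenase of fatty acid breakdown, rose with IL27 (1.44 ± 0.09, adjusted p = 1.75e-08) and with both (1.17 ± 0.09). Lpin1 rose with Dex (0.86 ± 0.10) and with IL27 (1.14 ± 0.10). Hsd17b12, a reductase of the elongation cycle, and Acsl4 fell with Dex (-0.77 ± 0.09 and -0.73 ± 0.09), and Acsl4 fell with both (-1.07 ± 0.09). Lpcat3, a phospholipid acyltransferase, fell with IL27 (-0.66 ± 0.07). Idi2, a relative of Idi1 whose reads counting may split with it, changed by -3.47 ± 0.26 with IL27 and -3.30 ± 0.26 with both, from 2539 counts in Ctrl, 225 with IL27 and 240 with both, summed over 3 libraries.

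Of the same list, 6 rose and 14 fell with Dex+IL27 against Dex (14.9% and 17.1% of all genes), and 3 rose and 14 fell against IL27 (11.7% and 14.3%). Against Dex, Acadl rose (0.96 ± 0.09), and Me1 (-1.93 ± 0.23), the citrate carrier Slc25a1 (-0.56 ± 0.07), Tmem97 (-0.53 ± 0.09) and Idi2 (-1.48 ± 0.27) fell. Against IL27, the mitochondrial thiolase Acat1 (-0.47 ± 0.06), Hsd17b12 (-0.57 ± 0.09), Tmem97 (-0.54 ± 0.09), the acetoacetyl-CoA synthetase Aacs (-0.63 ± 0.11) and Mid1ip1 (-0.44 ± 0.08) fell. The interaction of Dex with IL27 was positive for 5 and negative for 10 of the 55 genes (13.7% and 14.7% of all genes). The Dex change was higher at day 9 for 14 and lower for 12 of 57 genes tested over all libraries (20.4% and 19.2% of all genes).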

How the data were processed

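RNA from libraries of CD8+ T cells was read by SMART-Seq2-type sequencing, per the labels' protocols. The submitters' processing notes name TopHat, RSEM, DESeq and the mouse build mm9, with no versions. The authors deposited estimated counts (expected counts, not always whole) and FPKM per gene. Estimated counts were rounded and tested with edgeR 4.0.16 (TMM, glmQLFit and glmQLFTest) over the 12 libraries of a day, on 11967 genes at day 3 and 12320 at day 9 that passed filterByExpr (minimum count 10, minimum total 15). The difference between the days was fitted over all 24 libraries (12666 genes). CPM values were scaled by the TMM factors of the day. FPKM, deposited by the authors, serve for levels between genes. Adjusted p-values are Benjamini-Hochberg over all genes tested, and a call needs 0.05. Alternatives were other size factors, library totals, omission of Rn45s, no filter, DESeq2 1.42.0, limma 3.58.1 on log2(FPKM + 1) and log2(FPKM + 0.1), other sets of libraries and leaving out each library. Libraries of a group differed by 4.21 to 25.3 in chi-square per degree of freedom, and 0 pairs were identical. The highest values, 25.3 and 15.2, were those of IL27 library 1 of day 9 against libraries 2 and 3 of its group. Named in every library were Insig1, Srebf1, Srebf2, Sqle, Fdps, Fasn, Scd1, Scd2, the export genes and up to 4 called genes of a class with the lowest p, and of the wider list up to 6, of which 1 gene is not reported here. The members and lists were chosen with earlier results of these data known. Promoter sequences are RefSeq's. A genome of the build mm9 was not used here.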

Additional observations from a re-analysis of the deposited data

Results flagged for a closer look

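Several genes were picked out because their change differed between groups by edgeR's test of the difference itself, at an adjusted p under 0.05. The Dex change at day 3 was higher in WT than in cKO cells for Elovl6 (0.77) and lower for Mid1ip1 (-0.43), values being differences on the log2 scale.

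For Dex with IL27 at day 9 the difference was positive for Idi1 (0.69), Ebp (0.47), Insig1 (0.45), Fasn (0.75), Acaca (0.50), Acly (0.27) and Elovl1 (0.41) among the 35 genes and negative for Mvd (-0.68) and Elovl5 (-0.36). In the wider list 5 were positive and 10 negative, and the 6 with the lowest p were Idi2 (1.99), which was positive, and Slc25a1 (-0.80), Elovl7 (-2.45), Lpin1 (-0.85), Npc1 (-0.57) and Acss2 (-0.79), which were negative.

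The Dex change was higher at day 9 than at day 3 for Mvd (0.65), Fdft1 (0.26), Insig2 (0.53), Elovl5 (0.54), Abca1 (1.99), Abcg1 (1.35) and Mylip (1.95) and lower for Idi1 (-0.81), Hsd17b7 (-0.57), Ebp (-0.53), Scap (-0.73), Stard4 (-0.53), Fasn (-0.97), Acaca (-0.46), Acly (-0.47), Scd1 (-0.38), Elovl1 (-0.53) and Fads2 (-1.14). In the wider list 14 were higher and 12 lower, and the 6 with the lowest p were Npc2 (1.204), Npc1 (0.99), Lpin1 (1.12) and Elovl7 (1.97), which were higher, and Tmem97 (-0.89) and Aacs (-0.91), which were lower. No group holds 4 or more libraries, so single libraries were not tested as outliers.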

How the results depend on the processing

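Of 147 called results of the 35 genes over 12 comparisons, 115 kept direction and call under each alternative run and 32 lost the call under 1 or more. No result reversed. Of 273 results not called, 43 were called under 1 or more alternatives. The number of genes called with Dex in WT cells at day 3 was 4. It was 7 without a low-count filter, 7 with only the groups compared and 2 to 4 on leaving out a library. For cKO against WT without Dex it was 2, and was 1 with library totals, 4 without a filter, 0 in limma without a filter (the limma fits adjust over their own genes), 1 with 24 libraries in 1 fit, and 0 to 3 on leaving out a library. For the genotype difference it was 1, and was 3 without a filter, 2 by DESeq2's Wald test and 1 to 3 on leaving out a library. The cause of these differences was not tested. The other comparisons ranged on leaving out a library as follows: 0 to 0 for Dex in cKO cells, 6 to 7 for cKO against WT with Dex, 18 to 21 for Dex, 24 to 27 for IL27 and 27 to 28 for both at day 9, 14 to 17 and 9 to 18 for both against Dex and against IL27, 7 to 12 for the interaction (7 positive and 2 negative, but 6 and 6 with 24 libraries in 1 fit) and 16 to 18 for the difference between days.

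Over all genes, the calls for Dex in WT cells at day 3 were 1129, and 722 without Ctrl 2 and 691 without Dex 3. For cKO against WT without Dex they were 283, against 793 without a filter, 533 by DESeq2, 101 in limma without a filter, 129 with 24 libraries, and 63 to 177 without Ctrl 1 or 2 or any 1 cKO library (364 without Ctrl 3). For Dex in cKO cells they were 0, against 26 without a filter. With Dex in both genotypes they were 826, against 484 to 534 without WT Dex 1 or 2 or cKO Dex 4 or 5. They were 577 without WT Dex 3 and rose to 1186 without cKO Dex 6. For the genotype difference they were 353, against 765, 556, 185 and 213 in the same order of settings, 224 without WT Dex 3 and 235 without WT Ctrl 2. They rose to 479 without cKO Dex 6 and to 395 without WT Ctrl 3. Under library totals the calls up for cKO against WT without Dex went from 58.3% to 35.3%, and the median of all genes for Dex+IL27 against Ctrl went from 0.05 to -0.07, with that of the 35 genes from -0.37 to -0.50.

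Replicate numbers were shared by the groups of a day, except between WT and cKO cells. Same-numbered libraries correlated in their deviations by -0.02 to 0.28 at day 3 (6 pairs) and by -0.37 to 0.37 at day 9 (18 pairs), so the numbers were not taken as pairs. With the replicate block the genes called were 6, 0 and 1 for Dex in WT, Dex in cKO and the genotype difference, 20, 27 and 29 for Dex, IL27 and both, 17 and 15 for both against Dex and against IL27, 9 for the interaction and 17 for the difference between days. No paired analysis was possible for cKO against WT because they share no numbers.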
